A study of Mus musculus with 15 samples.

Results

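Cyclic AMP (cAMP) signalling genes were followed through the olfactory bulbs of mice in which signalling by the CRH receptor CRHR1 had been lowered or raised. The members were chosen by gene name from the array design: the adenylyl cyclases (Adcy), the phosphodiesterases (Pde), the regulatory and catalytic subunits of protein kinase A (Prkar and Prkac), the A-kinase anchoring proteins (Akap), the Epac genes Rapgef3 and Rapgef4, the CREB genes with Crem, the coactivator gene Crebbp, and Gnas. The names matched 69 genes with 128 probes. Of these, 64 had a probe well above background on at least 4 of 5 arrays of a group and were tested among 27340 genes in all. The other 5 were Adcy10 among the cyclases, Pde6b among the phosphodiesterases, and Akap3, Akap4 and Akap14 among the anchors. A name match also takes in genes outside the pathway, such as Pde12, a mitochondrial RNA-trimming enzyme, the Pde6 genes of photoreceptors, and the CREB3 family, transcription factors held in the membrane of the endoplasmic reticulum.

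CRHR1 is coupled to the stimulatory G protein, whose alpha subunit is made by Gnas. That subunit activates adenylyl cyclases, which make cAMP. Cyclic AMP releases the catalytic subunits of protein kinase A (PKA) from the regulatory ones and activates Epac, while phosphodiesterases break it down and A-kinase anchors hold PKA near its substrates. Released PKA phosphorylates CREB, which recruits CREB-binding protein (Crebbp) at cAMP response elements (CREs) in promoters. In the bulb, CRHR1 is found on granule cells, inhibitory neurons that receive CRH from other bulb interneurons.

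The 3 groups held 5 male mice each, and each of the 15 mice gave 1 array. All mice were 6 to 8 weeks old and had received 500 nL of a Cre-dependent adeno-associated virus in the bulb 2 weeks before RNA was taken. The knockout group were CRHR1-/- mice of strain 129S4/SvJae given AAV-flex-GFP, which the labels call low in CRH signalling. The active CRHR1 group were CRHR1-Cre mice of strain C57Bl/6 given AAV-flex-(CA)CRHR1, coding for a constitutively active receptor, which the labels call high. The Cre GFP group were CRHR1-Cre C57Bl/6 mice given AAV-flex-GFP, called pseudo wild type. The knockout titles name no Cre, so strain, loss of the receptor, Cre and expression of viral GFP cannot be told apart in comparisons with the knockout. In the CRHR1-Cre groups the virus acts only in Cre-positive cells, while whole bulb RNA was measured. A smaller share of cells of a type and less RNA per cell cannot be told apart in such samples.

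The 5 knockout arrays shared slide 1 with Cre GFP arrays 1 to 3, and the 5 active CRHR1 arrays shared slide 2 with the other Cre GFP arrays. Between 58.7% and 66.9% of the probes were well above background, and arrays correlated with others of their group at a mean of 0.985 to 0.993 over genes, lowest for knockout array 5. Crhr1 itself had levels of 2.99 to 3.32 on the knockout arrays, 3.57 to 3.83 on the active CRHR1 arrays and 3.48 to 3.86 on the Cre GFP arrays (chromosome 11, 104036691 to 104036750, build mm9, as all probe positions here). The knockout change was -0.47 ± 0.09 (adjusted p = 0.0146) and the active CRHR1 change 0.09 ± 0.09 (adjusted p = 0.543). Whether the probe lies in the deleted part or in the viral sequence was not determined, and outside both it checks nothing about the labels. The marker genes of granule and other GABA neurons, mitral and tufted cells, dopamine cells and olfactory sensory neurons were all well above background on all 15 arrays.

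A level here is a probe's processed signal on the log2 scale after the 75th percentile of its array was taken off, so 0 is the level that 75% of the probes do not exceed. Changes are differences of group means with the standard error, and a gene is said to rise or fall where the p of limma, adjusted over all 27340 genes (Benjamini-Hochberg), was under 0.05. Of the 64 tested members 62 were well above background on all arrays. The exceptions were the cone photoreceptor genes Pde6c and Pde6h. The median SD among the 5 arrays of a group was 0.14 over members in the knockout, 0.12 in active CRHR1 and 0.15 in Cre GFP bulbs, against 0.20, 0.15 and 0.17 over all genes. The largest SD was 1.02, of Pde6h in the knockout.

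Because CREB acts at CREs, the 250 bases before each annotated start were searched in RefSeq's sequences (build GRCm38.p6). Of the 69 members 56 had such a window, 105 windows in all. The full CRE TGACGTCA, which reads the same on both strands, was in 2 member windows (1.90%), those of Creb5 and Prkar1a, and in 508 of 32851 windows of all genes (1.55%). Its shorter core, TGACG or CGTCA on either strand, which also lies within the full CRE, was in 23 member windows (21.9%) and in 17.8% of all windows. Of 9 members that rose or fell against Cre GFP, 8 had 15 windows, of which 0 held the full CRE and 3 the shorter core (20%). A window each of 4 genes follows, those of Adcy7, Pde10a and Akap5 because these genes carry the steadiest changes described next and Creb5 because it holds the full CRE. Capitals mark the CRE or its core.
Adcy7, chr8:88282742-88282991, plus strand, core at -28: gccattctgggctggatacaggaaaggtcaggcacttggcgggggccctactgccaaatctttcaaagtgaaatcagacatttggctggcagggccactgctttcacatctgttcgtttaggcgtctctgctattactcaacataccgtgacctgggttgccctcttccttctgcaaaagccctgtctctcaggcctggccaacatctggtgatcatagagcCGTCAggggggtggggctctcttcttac
Pde10a, chr17:8801495-8801744, plus strand, no match: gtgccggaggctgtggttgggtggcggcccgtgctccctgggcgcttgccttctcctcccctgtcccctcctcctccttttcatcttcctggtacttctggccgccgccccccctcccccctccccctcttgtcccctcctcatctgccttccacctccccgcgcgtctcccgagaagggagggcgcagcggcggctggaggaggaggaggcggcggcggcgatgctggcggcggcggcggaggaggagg
Akap5, chr12:76324641-76324890, plus strand, no match: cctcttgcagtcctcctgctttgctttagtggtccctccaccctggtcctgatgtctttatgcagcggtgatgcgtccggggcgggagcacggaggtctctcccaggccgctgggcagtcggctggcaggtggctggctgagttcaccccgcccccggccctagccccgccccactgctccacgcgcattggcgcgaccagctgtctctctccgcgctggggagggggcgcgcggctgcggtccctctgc
Creb5, chr6:53287053-53287302, plus strand, full CRE at -45: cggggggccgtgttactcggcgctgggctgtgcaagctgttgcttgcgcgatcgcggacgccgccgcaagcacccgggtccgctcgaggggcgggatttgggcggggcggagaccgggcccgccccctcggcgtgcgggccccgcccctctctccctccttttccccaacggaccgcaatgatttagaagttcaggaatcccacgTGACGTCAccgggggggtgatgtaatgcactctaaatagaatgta
Positions count back from the start of transcription and give the leftmost base of the match. A match is only a run of letters, and its absence concerns this window alone. The window of another Creb5 start (chr6:53573124-53573373) held no match, nor did the windows of the other Adcy7 starts.

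In knockout against Cre GFP bulbs, the comparison of lowered CRH signalling that also spans both strains, 3 members fell and 0 rose. They were the phosphodiesterase gene Pde10a (-0.47 ± 0.09), the endoplasmic reticulum factor gene Creb3l1 (-0.34 ± 0.08) and Rapgef3, which makes Epac1 (-0.27 ± 0.06). That is 4.69% of the 64 tested, against 3.35% of all genes, and 1.39% of all genes fell. No cyclase, PKA subunit or anchor passed. At an unadjusted p under 0.05 there were 8 members (12.5%, against 19.8% of all genes). The median change of the members was -0.0015, against 0.0049 over all genes, and 33 of 64 means were lower in the knockout. The groups did not overlap for 4 of the 64 members, against 5.57% of all genes. These 4 were the 3 that fell and Akap7.

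All 3 changes kept their direction among slide 1 arrays alone, but none passed with slide as a block (adjusted p from 0.0779 to 0.118) or within slide 1 (0.169 to 0.239), and 0 members passed in either fit. An added fit lacking knockout arrays 2 and 5, chosen once the data had been seen, gave adjusted p from 0.0984 to 0.151.

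In active CRHR1 against Cre GFP bulbs, the comparison of raised CRH signalling within the C57Bl/6 strain, 2 members rose and 6 fell. The cyclase gene Adcy7 rose by 0.98 ± 0.15, and Creb3l1 rose by 0.33 ± 0.08. Pde10a (-0.63 ± 0.09), Pde1a (-0.46 ± 0.09), the cyclase gene Adcy1 (-0.46 ± 0.12), the PKA subunit gene Prkar2b (-0.40 ± 0.10), the anchor gene Akap5 (-0.38 ± 0.08) and Pde6d (-0.20 ± 0.06) fell. These 8 are 12.5% of the members tested, against 8.49% of all genes. Unadjusted p was under 0.05 for 25 members (39.1%, against 27.1% of all genes). Over all genes 3.91% rose and 4.58% fell. The median change of the members was -0.10, against -0.06 over all genes, and 43 of 64 means were lower with active CRHR1. The groups did not overlap for 14 of the 64 members, among them 7 of the 8, against 10.4% of all genes.

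Among slide 2 arrays alone, which is also the estimate with slide as a block, all 8 kept their direction. With the block Adcy7, Pde10a, Akap5 and Prkar2b passed (4 of 64, or 6.25%, against 3.69% of all genes), and within slide 2, with only 2 Cre GFP arrays, Adcy7 (adjusted p = 0.0486) and Prkar2b (0.0404) did.

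**Figure D1:**
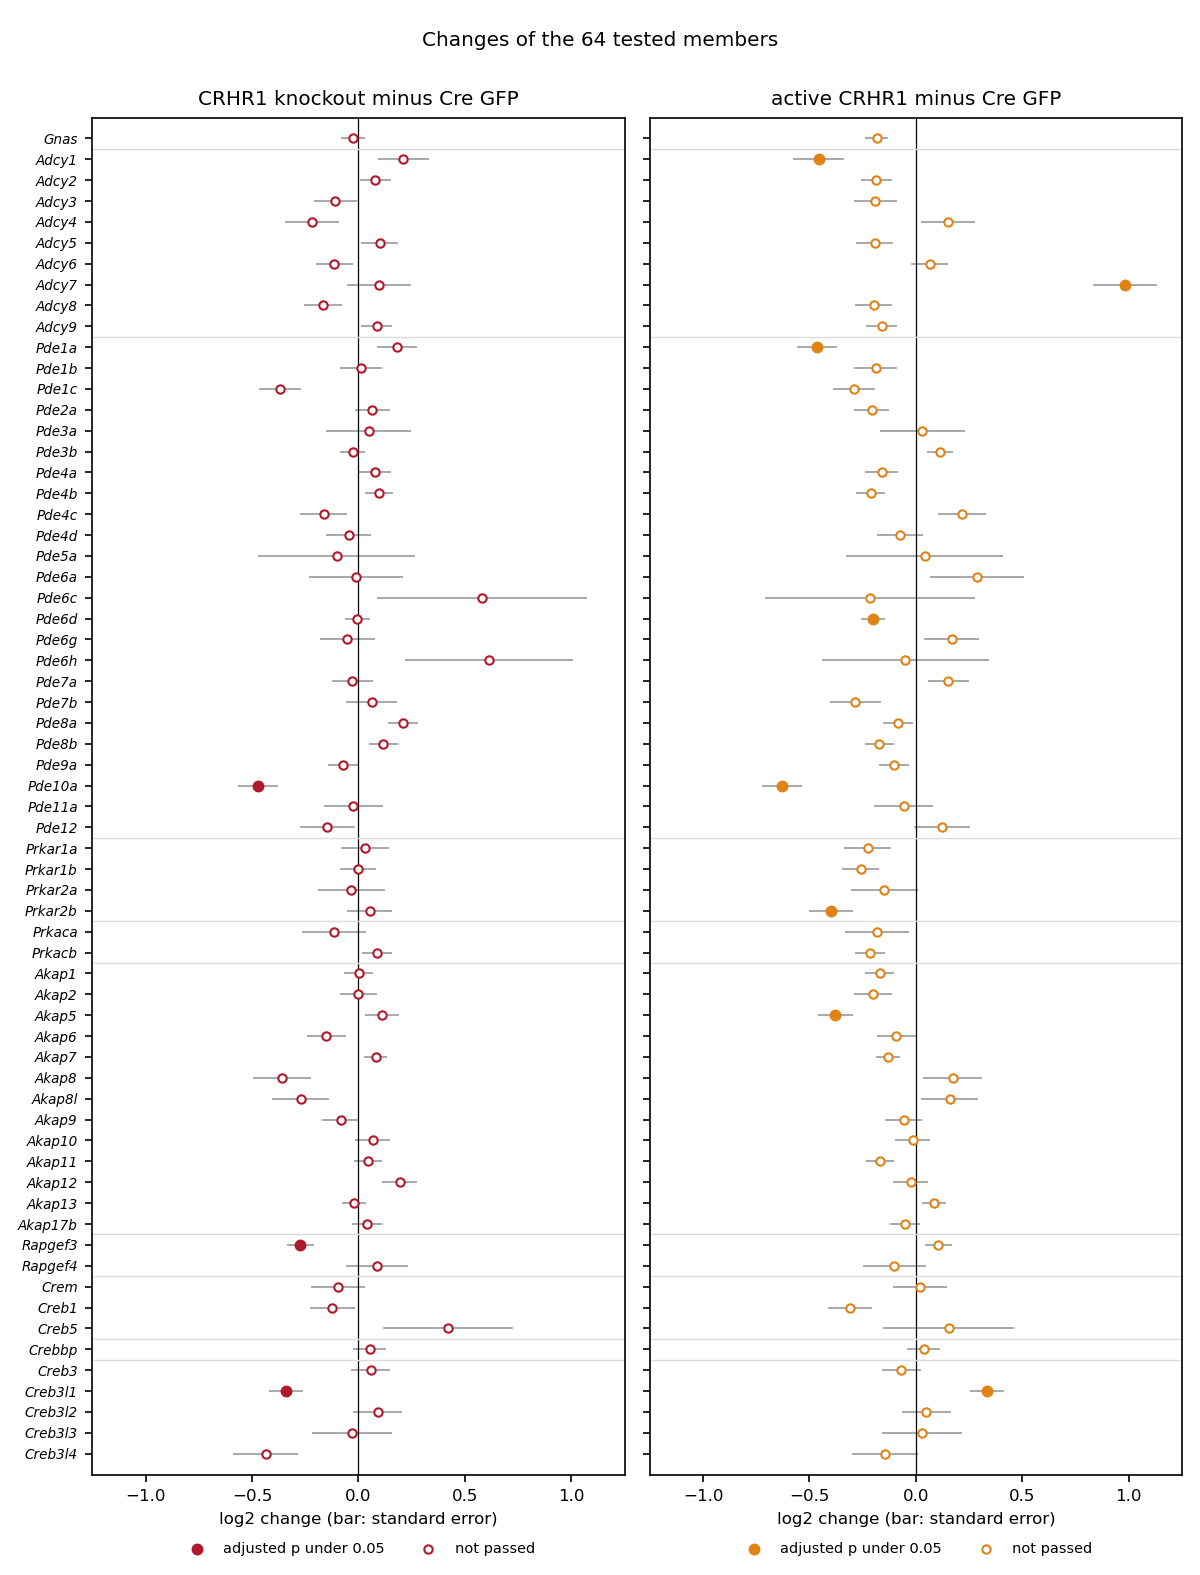
Log2 changes of the 64 tested members, grouped by family from Gnas at the top to the CREB3 family at the bottom, in CRHR1 knockout minus Cre GFP bulbs (left) and active CRHR1 minus Cre GFP bulbs (right). Points are differences of means of 5 arrays each, bars are standard errors, and filled points have an adjusted p under 0.05: 3 on the left, all lower, and 8 on the right, 2 higher and 6 lower.

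Gnas, the alpha subunit of the stimulatory G protein (chromosome 2, 174171933 to 174171992), had levels of 6.76, 6.69, 6.62, 6.81 and 6.81 on the knockout arrays, 6.53, 6.69, 6.55, 6.59 and 6.53 on the active CRHR1 arrays and 6.71, 6.76, 6.77, 6.77 and 6.81 on the Cre GFP arrays. All active CRHR1 arrays lay below all Cre GFP arrays, and knockout arrays overlapped both groups. The change of -0.18 ± 0.05 with active CRHR1 just missed the threshold (adjusted p = 0.0517), and that in the knockout was -0.03 ± 0.05 (adjusted p = 0.834).

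Adcy7 stood out among the 9 tested cyclase genes, of which 1 rose and 1 fell with active CRHR1 and 0 passed in the knockout. The enzyme is known from blood and immune cells (chromosome 8, 90853657 to 90853716). Its levels were -1.65, -1.78, -1.55, -1.87 and -2.18 on the knockout arrays, -0.63, -1.26, -1.15, -0.83 and -0.73 on the active CRHR1 arrays and -1.66, -1.66, -2.14, -1.99 and -2.06 on the Cre GFP arrays. Every active CRHR1 array was above every array of the other groups, and knockout and Cre GFP arrays overlapped. The rise was 1.97-fold (adjusted p = 0.00121), passed in all 15 fits that left out 1 array and in all 13 other alternatives, and was 1.11 with slide as a block (adjusted p = 0.00872). The knockout change was 0.10 ± 0.15 (adjusted p = 0.763). Microglia and macrophage markers were higher on the same active CRHR1 arrays. Of 15 such markers 12 rose and 0 fell, where 3.91% of all genes rose and 4.58% fell. Their summed log2 signal ran from 7.09 to 7.64, against 6.47 to 6.86 in Cre GFP bulbs. Of 9 T cell genes 6 were tested and 4 rose, with sums of 1.44 to 2.28 in active CRHR1 bulbs, against 1.49 to 1.72 in Cre GFP bulbs. Among the 6, Cd3g was kept only through the active CRHR1 group, which tilts the tested set towards a rise. It was well above background on 4 active CRHR1, 3 knockout and 1 Cre GFP arrays, and Il7r on 2 Cre GFP arrays. The part of microglia, macrophages and T cells in the Adcy7 rise was not tested.

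Adcy1, a cyclase that calcium and calmodulin stimulate in neurons (chromosome 11, 7077699 to 7077755), had levels of 2.76, 2.56, 2.28, 2.62 and 2.43 on the knockout arrays, 1.71, 1.94, 1.95, 2.20 and 1.52 on the active CRHR1 arrays and 2.20, 2.41, 2.23, 2.30 and 2.47 on the Cre GFP arrays. The highest active CRHR1 array came within rounding of the lowest Cre GFP array, without overlap. Its fall (adjusted p = 0.0316) was -0.52 with slide as a block (adjusted p = 0.0967, and 0.137 within slide 2) and was lost in 6 of the 15 omissions. The knockout change was 0.21 ± 0.12 (adjusted p = 0.349). Adcy3, the cyclase of sensory neuron cilia, had changes of -0.11 ± 0.10 in the knockout and -0.19 ± 0.10 with active CRHR1 (adjusted p = 0.584 and 0.238). Those of Adcy5, a cyclase abundant in striatal neurons, were 0.10 ± 0.09 and -0.19 ± 0.09 (0.558 and 0.173), and those of Adcy2 0.08 ± 0.07 and -0.19 ± 0.07 (0.580 and 0.122).

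**Figure D2:**
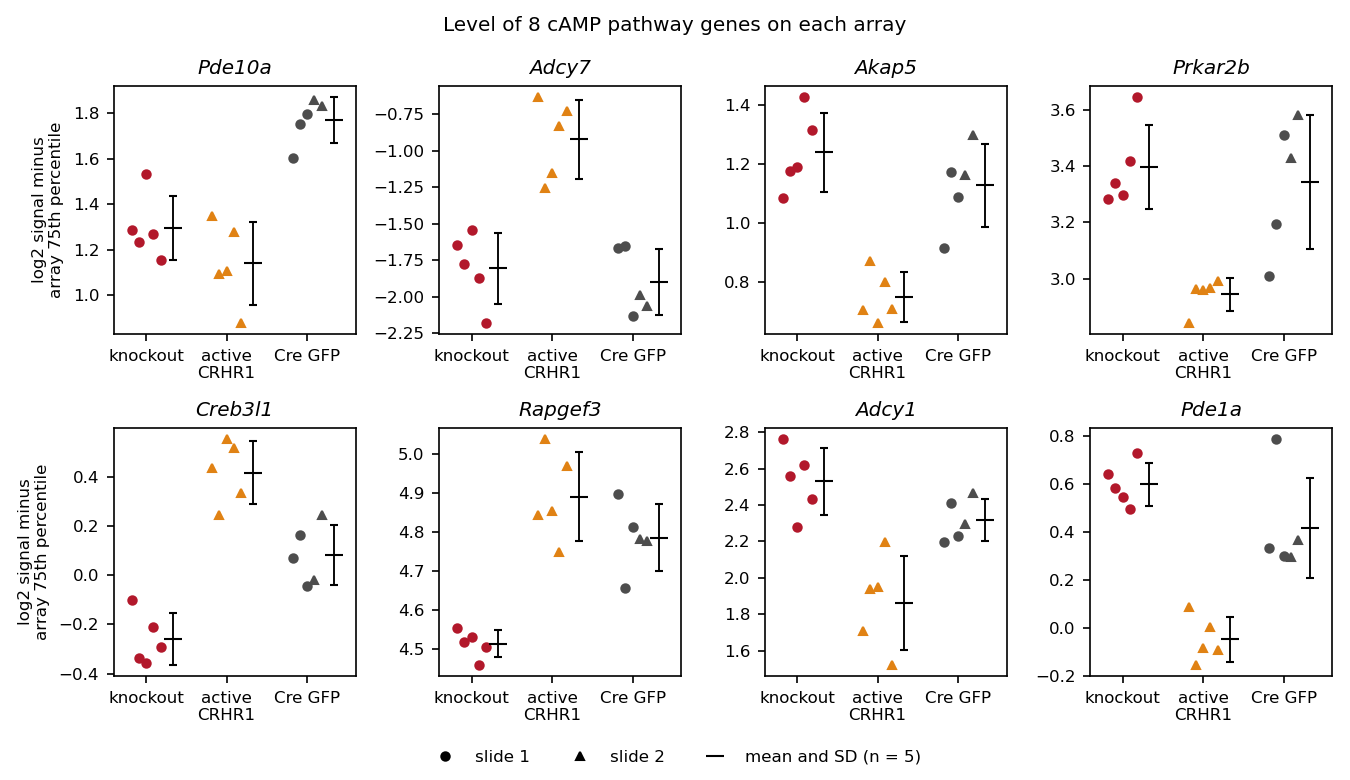
Levels (log2 signal minus the array's 75th percentile) of 8 of the 9 members that rose or fell against Cre GFP, on each array of the knockout, active CRHR1 and Cre GFP groups. Circles are slide 1 and triangles slide 2, and the bar beside each group is its mean and SD (n = 5). Active CRHR1 arrays lie apart from the others for Adcy7, and both knockout and active CRHR1 arrays lie below Cre GFP arrays for Pde10a.

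Pde10a, an enzyme for cAMP and cGMP best known from striatal neurons, was the member that fell in both comparisons (chromosome 17, 9174995 to 9175054). Its levels were 1.29, 1.24, 1.53, 1.27 and 1.16 on the knockout arrays, 1.35, 1.09, 1.11, 1.28 and 0.88 on the active CRHR1 arrays and 1.60, 1.75, 1.79, 1.86 and 1.83 on the Cre GFP arrays. All knockout and all active CRHR1 arrays lay below all Cre GFP arrays, and the knockout and active CRHR1 arrays overlapped (difference -0.16 ± 0.09, adjusted p = 0.220). The knockout level was 0.721 times that of Cre GFP (adjusted p = 0.0155) and the active CRHR1 level 0.647 times (adjusted p = 0.00105). Since both comparisons use the same Cre GFP arrays, they are not independent. A second probe (9174477 to 9174536) gave -0.55 and -0.65 (adjusted p = 0.0113 and 0.00162 over 33968 kept probes). No omission of 1 array ended either call. Slide as a block gave -0.42 in the knockout (adjusted p = 0.0779) and -0.71 with active CRHR1 (adjusted p = 0.00764), and within slides adjusted p was 0.169 and 0.0588.

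Pde1a, a phosphodiesterase that calcium and calmodulin activate (chromosome 2, 79705201 to 79705260), had levels of 0.64, 0.58, 0.55, 0.50 and 0.73 on the knockout arrays, 0.09, -0.15, -0.08, 0.00 and -0.09 on the active CRHR1 arrays and 0.33, 0.79, 0.30, 0.30 and 0.37 on the Cre GFP arrays. Cre GFP array 2 was far above the rest of its group. The fall with active CRHR1 (adjusted p = 0.00693) held in all 15 omissions, was -0.38 with slide as a block (adjusted p = 0.0998, and 0.0814 within slide 2), and a second probe gave -0.03 (adjusted p = 0.925). The knockout change was 0.18 ± 0.09 (adjusted p = 0.292), and 0.27 without Cre GFP array 2 (adjusted p = 0.0440). Pde6d, which carries prenylated proteins rather than acting on cAMP, fell with active CRHR1 to 1.70 ± 0.05 against 1.91 ± 0.10 in Cre GFP bulbs (SD, n = 5 each; adjusted p = 0.0459), and that call was lost in 11 of the 15 omissions and with slide as a block. Pde2a, which cGMP stimulates, had changes of 0.07 ± 0.08 in the knockout and -0.21 ± 0.08 with active CRHR1 (adjusted p = 0.697 and 0.126). The 24 tested phosphodiesterases had a median change of -0.0084 in the knockout, with 13 means lower, and -0.09 with active CRHR1, with 16 lower.

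The 4 regulatory and 2 catalytic PKA subunit genes all had lower means with active CRHR1, and 1 of these fell. Prkar2b, the regulatory subunit abundant in forebrain neurons (chromosome 12, 32643366 to 32643425), had levels of 3.28, 3.34, 3.30, 3.42 and 3.64 on the knockout arrays, 2.84, 2.96, 2.96, 2.96 and 2.99 on the active CRHR1 arrays and 3.01, 3.19, 3.51, 3.43 and 3.58 on the Cre GFP arrays. The active CRHR1 arrays lay just below the lowest Cre GFP array. The fall (adjusted p = 0.0310) was -0.56 with slide as a block (adjusted p = 0.0285) and was lost in 7 of the 15 omissions. Its 2 other probes gave -0.31 (adjusted p = 0.0396) and -0.27 (adjusted p = 0.0898).

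The other PKA genes had active CRHR1 changes of -0.26 ± 0.09 for Prkar1b (adjusted p = 0.0773), -0.23 ± 0.11 for Prkar1a (adjusted p = 0.208), -0.22 ± 0.07 for Prkacb (adjusted p = 0.0766), -0.18 ± 0.15 for Prkaca (adjusted p = 0.446) and -0.15 ± 0.16 for Prkar2a (adjusted p = 0.563). In the knockout the 4 regulatory subunit genes had differences of -0.03 to 0.05, and Prkaca and Prkacb had differences of -0.11 ± 0.15 and 0.09 ± 0.07 (adjusted p = 0.708 and 0.535).

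Among 13 tested anchors 1 fell with active CRHR1 and 0 passed in the knockout. Akap5 holds PKA at the postsynaptic membrane (chromosome 12, 77434981 to 77435040). Its levels were 1.08, 1.18, 1.19, 1.42 and 1.32 on the knockout arrays, 0.71, 0.87, 0.66, 0.80 and 0.71 on the active CRHR1 arrays and 0.92, 1.17, 1.09, 1.16 and 1.30 on the Cre GFP arrays. All active CRHR1 arrays were below all others. The fall (adjusted p = 0.0117) held in all 15 omissions and was -0.48 with slide as a block (adjusted p = 0.0224), though not within slide 2 alone (0.0555). The knockout change was 0.11 ± 0.08 (adjusted p = 0.476). Akap2, which RefSeq now names Pakap, had changes of -0.00068 ± 0.09 and -0.20 ± 0.09 (adjusted p = 0.998 and 0.159).

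Markers of some neurons and glia moved on the same arrays as these falls. With active CRHR1 against Cre GFP, 3.91% of all genes rose and 4.58% fell. Of the markers, 0 of 6 mitral and tufted cell, 0 of 4 sensory neuron and 0 of 4 ensheathing glia genes passed. Of 3 dopamine cell genes 1 fell, while 1 of 8 astrocyte and 1 of 6 endothelial and mural genes rose. Of 12 markers of granule and other GABA neurons 4 fell and 0 rose with active CRHR1, and their summed log2 signal was 8.79 to 9.04, against 9.05 to 9.25 in Cre GFP bulbs, so that the groups did not overlap. Of 7 oligodendrocyte genes 3 fell, with sums of 6.87 to 7.20 in active CRHR1 bulbs, against 7.26 to 7.52 in Cre GFP bulbs. All 12 and all 7 were well above background on every array. The part of a smaller share of these cells in the falls of Pde10a, Adcy1, Prkar2b and Akap5 was not tested. In the knockout, where 1.97% of all genes rose and 1.39% fell, 3 of 4 ensheathing glia genes rose. Their sums were 5.70 to 6.07 in knockout bulbs, against 5.31 to 5.58 in Cre GFP bulbs. Of 6 endothelial and mural genes 3 rose, with overlapping sums of 4.79 to 5.05 in knockout and 4.57 to 4.84 in Cre GFP bulbs. Also, 2 of 8 astrocyte, 1 of 7 oligodendrocyte and 1 of 6 T cell genes rose, and 1 of 12 GABA neuron genes fell. The part of these cell types in the knockout changes was not tested.

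**Figure D3:**
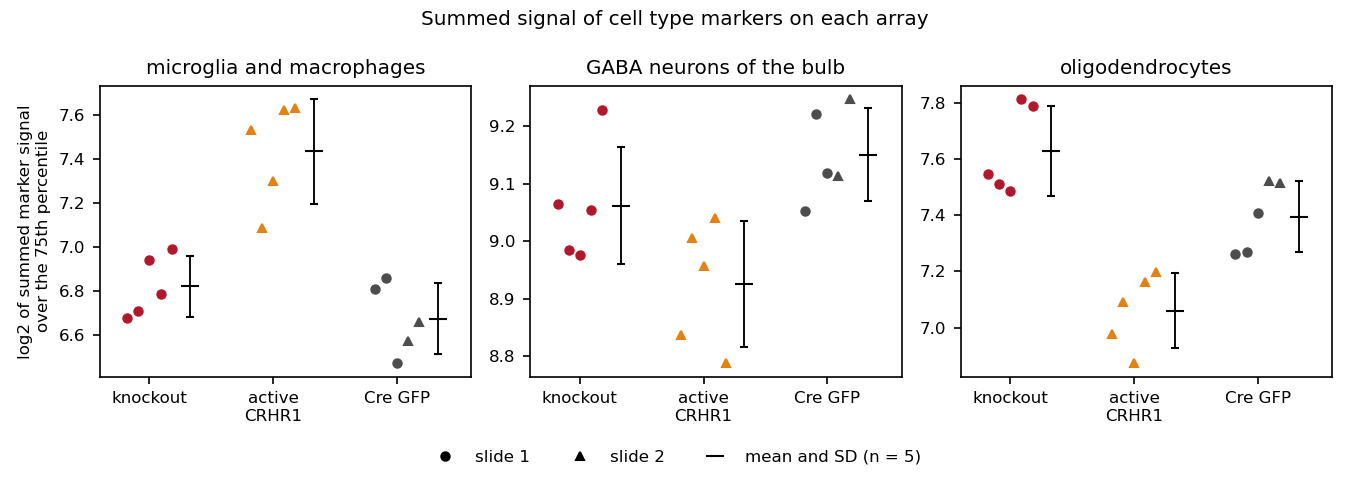
Summed signal of marker genes on each array of the knockout, active CRHR1 and Cre GFP groups, as log2 over the array's 75th percentile, with group mean and SD (n = 5) beside the points. Microglia and macrophage sums are 7.09 to 7.64 on active CRHR1 arrays and 6.47 to 6.86 on Cre GFP arrays, while sums of GABA neuron and oligodendrocyte markers are lower on active CRHR1 than on Cre GFP arrays.

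Rapgef3, the gene of Epac1, a cAMP-gated activator of Rap proteins (chromosome 15, 97575424 to 97575483), had levels of 4.55, 4.52, 4.53, 4.46 and 4.50 on the knockout arrays, 4.84, 5.04, 4.85, 4.75 and 4.97 on the active CRHR1 arrays and 4.90, 4.66, 4.81, 4.78 and 4.78 on the Cre GFP arrays. The knockout arrays lay close together and below all others. The fall (adjusted p = 0.0319) was lost in 8 of the 15 omissions, and the active CRHR1 change was 0.10 ± 0.06 (adjusted p = 0.300). Rapgef4, the gene of the neuronal Epac2, had changes of 0.09 ± 0.15 in the knockout and -0.10 ± 0.15 with active CRHR1 (adjusted p = 0.780 and 0.686).

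Creb1, Crem, Crebbp and Creb5 did not pass in any of the 3 comparisons. Creb1 (chromosome 1, 64651061 to 64651120) averaged -1.03 ± 0.18 in the knockout, -1.22 ± 0.19 in active CRHR1 and -0.91 ± 0.11 in Cre GFP bulbs (SD, n = 5 each). The changes were -0.12 ± 0.10 and -0.31 ± 0.10 (adjusted p = 0.548 and 0.0824), and a second Creb1 probe gave -0.05 and 0.01. Crem, which encodes both activators and repressors of CREs, had changes of -0.10 ± 0.13 and 0.02 ± 0.13 (adjusted p = 0.716 and 0.935), and Crebbp, the acetyltransferase that CREB recruits, 0.05 ± 0.08 and 0.04 ± 0.08 (adjusted p = 0.748 and 0.795). Creb5, whose window with the full CRE is shown above, had levels of 4.65, 5.15, 4.48, 5.00 and 6.73 on the knockout arrays, 4.87, 4.90, 5.00, 5.01 and 4.88 on the active CRHR1 arrays and 4.72, 4.80, 4.81, 4.81 and 4.75 on the Cre GFP arrays. Knockout array 5 was far above every other array. Active CRHR1 arrays were all above Cre GFP arrays, by a mean of 0.15 ± 0.31 in the common fit (adjusted p = 0.782). The knockout change was 0.42 ± 0.31 (adjusted p = 0.473). The error of the common fit pools the 3 groups, whose SD was 0.90 in the knockout, 0.07 in active CRHR1 and 0.04 in Cre GFP bulbs. That p therefore cannot decide whether Creb5 differs between active CRHR1 and Cre GFP bulbs.

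Creb3l1 was the member with opposite changes, lower in the knockout and higher with active CRHR1 (chromosome 2, 91822506 to 91822565). It makes an endoplasmic reticulum factor that is cut loose under stress of that compartment. Levels were -0.10, -0.34, -0.36, -0.21 and -0.29 on the knockout arrays, 0.44, 0.24, 0.55, 0.52 and 0.33 on the active CRHR1 arrays and 0.07, 0.16, -0.04, -0.02 and 0.25 on the Cre GFP arrays. The knockout arrays were below all others, and active CRHR1 and Cre GFP arrays overlapped between 0.24 and 0.25. Adjusted p was 0.0323 and 0.0207, the calls were lost in 8 and in 5 of the 15 omissions, and with slide as a block the changes were -0.32 and 0.30 (adjusted p = 0.118 and 0.136; within slides 0.230 and 0.163). Creb3, of the same family, had changes of 0.06 ± 0.09 and -0.07 ± 0.09 (adjusted p = 0.770 and 0.658).

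Between active CRHR1 and knockout bulbs, the ends of the labels' range of CRH signalling, 7 members rose and 19 fell with active CRHR1. These are 40.6% of the 64, against 25.6% of all genes (9.38% rose and 16.2% fell). Members that rose were Adcy7 (0.88 ± 0.15), Creb3l1 (0.68 ± 0.08), Akap8 (0.53 ± 0.14), Akap8l (0.43 ± 0.13), Pde4c (0.38 ± 0.11), Rapgef3 (0.38 ± 0.06) and Adcy4 (0.37 ± 0.13). Akap8 and Akap8l, neighbours on chromosome 17, make nuclear anchors. The cyclase genes Adcy1 (-0.67 ± 0.12), Adcy5 (-0.29 ± 0.09), Adcy2 (-0.27 ± 0.07) and Adcy9 (-0.25 ± 0.07) fell, as did Gnas (-0.16 ± 0.05, adjusted p = 0.0463). That Gnas call was lost in 12 of the 15 omissions and with slide as a block (adjusted p = 0.233). The median change of the members was -0.10, against -0.07 over all genes. The groups did not overlap for 21 of the 64 members, against 18.6% of all genes. Unadjusted p was under 0.05 for 31 members (48.4%, against 41.4% of all genes).

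Phosphodiesterase genes that fell were Pde1a (-0.65 ± 0.09), Pde7b (-0.35 ± 0.12), Pde4b (-0.31 ± 0.07), Pde8a (-0.29 ± 0.07), Pde8b (-0.29 ± 0.07), Pde2a (-0.27 ± 0.08), Pde4a (-0.24 ± 0.08) and Pde6d (-0.20 ± 0.06). The Pde4, Pde7 and Pde8 enzymes are specific for cAMP. Akap5 (-0.49 ± 0.08), Akap11 (-0.21 ± 0.07) and Akap7 (-0.21 ± 0.05) fell among the anchors, and Prkar2b (-0.45 ± 0.10), Prkacb (-0.30 ± 0.07) and Prkar1b (-0.26 ± 0.09) among the PKA subunits. Adjusted p over these 26 members ran from 0.000234 for Creb3l1 to 0.0472 for Pde7b. Besides that of Gnas, the calls lost most often in the 15 omissions were those of Pde7b (13), Prkar1b (10), Adcy4 (9) and Pde4a (8). Creb1, Crem, Crebbp, Prkaca, Prkar1a, Adcy3 and Rapgef4 did not pass (adjusted p from 0.0977 to 0.894).

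No slide held both groups, so this difference can be set against slide only through the Cre GFP arrays. With slide as a block all 26 kept their direction, but 4 passed (Adcy7, Creb3l1, Akap5 and Prkar2b) together with Akap12 (-0.49, adjusted p = 0.0482, chosen after its values were seen), 7.81% of members against 2.48% of all genes. The split was 6 higher and 6 lower in the authors' scaled values (2067 and 2247 of all genes), where Akap11, Pde2a, Pde7b and Prkar2b, among the 19 that fell, had no value here. It was 7 and 11 under quantile normalization (3054 and 3752 of all genes) and 4 and 8 when knockout arrays 2 and 5 were omitted. In active CRHR1 against knockout bulbs 9.38% of all genes rose and 16.2% fell. Of the markers, 8 of 15 microglia and macrophage genes rose and 1 fell. Of oligodendrocyte genes 5 of 7 fell, and of ensheathing glia genes 4 of 4. The part of these cell types was not tested.

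**Figure D4:**
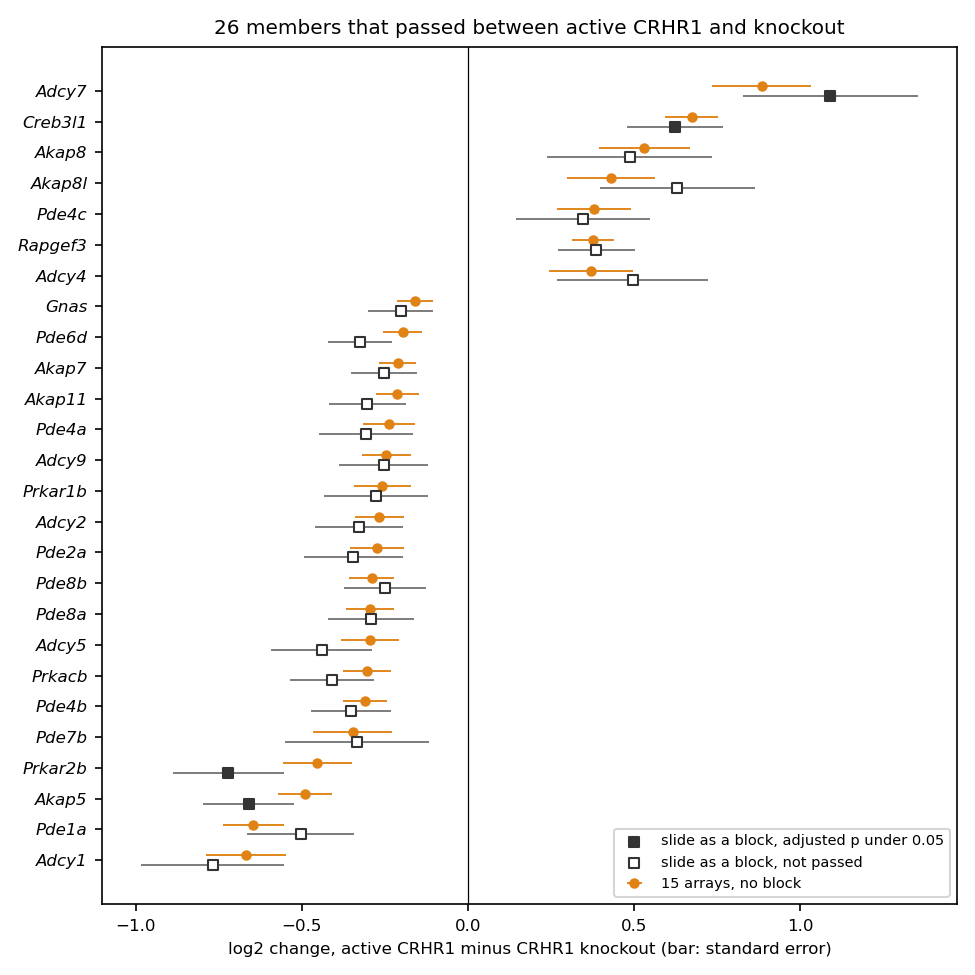
Log2 change, active CRHR1 minus CRHR1 knockout, of the 26 members that passed, ordered by size, without a block (circles) and with slide as a block (squares). Bars are standard errors. All 26 keep their direction with the block, and the 4 filled squares, Adcy7, Creb3l1, Akap5 and Prkar2b, have an adjusted p under 0.05 there.

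For 29 members 43 further probes were kept, which may lie on other transcripts or other exons. Of these, 25 had the sign of the member's brightest probe in knockout against Cre GFP, 23 in active CRHR1 against Cre GFP and 30 in active CRHR1 against knockout. In the second comparison 5 passed (11.6%, against 8.36% of all kept probes), all lower: those of Pde10a (-0.65), Pde7b (-0.49), Prkar2b (-0.31), Prkar1b (-0.27) and Pde4b (-0.25). In the third 13 passed (30.2%, against 25.6%), and 4 of these had the opposite sign to the brightest probe, with changes of 1.16 for Pde4d, 0.88 for Prkar1a, 0.78 for Akap10 and -0.29 for Akap13. A Gnas probe farther upstream (174163501 to 174163560) fell by 0.59 in active CRHR1 against knockout bulbs (adjusted p = 0.00543), with 0.28 in the knockout and -0.31 with active CRHR1 against Cre GFP (adjusted p = 0.230 and 0.125).

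**Figure D5:**
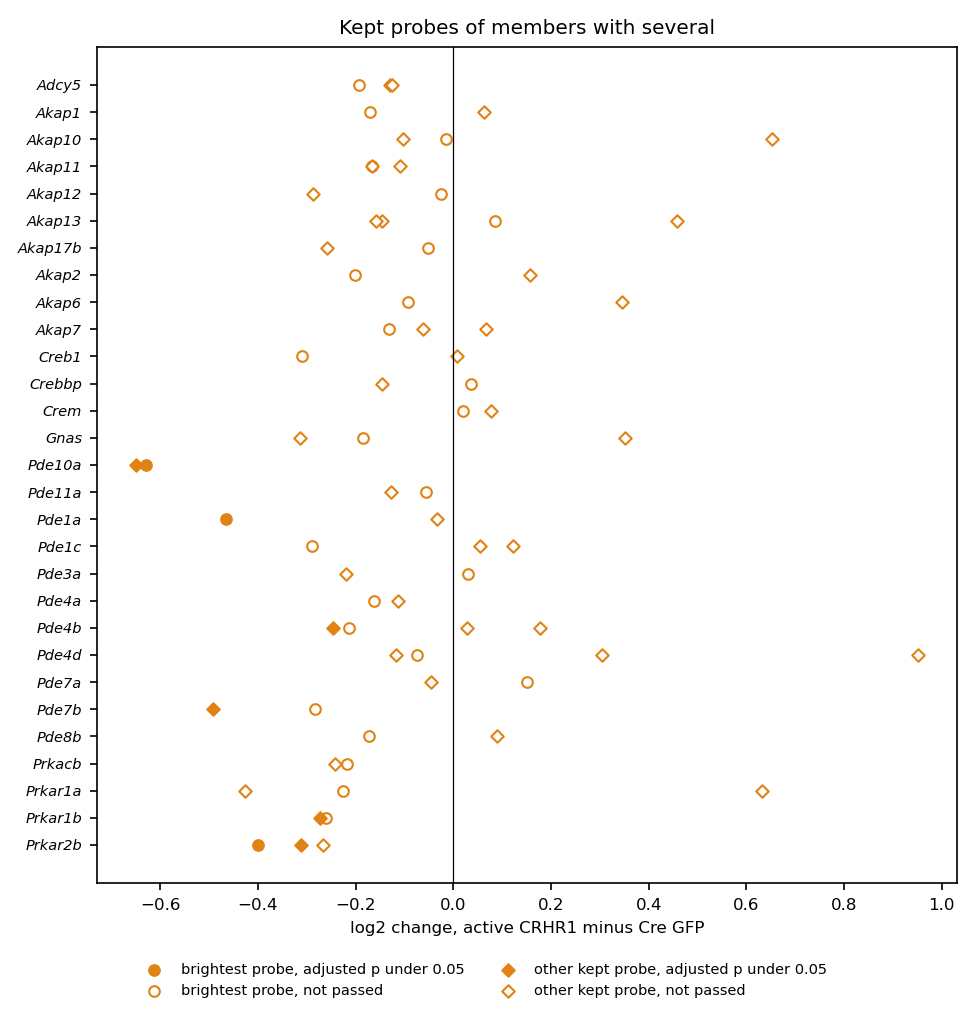
Log2 change, active CRHR1 minus Cre GFP, for every kept probe of the 29 members with several. Circles are the brightest probe, diamonds the others, and filled marks have an adjusted p under 0.05 over all kept probes. Both Pde10a probes lie near -0.6, while the probes of Pde4d and Prkar1a lie on both sides of 0.

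Genes that act beside the members were taken as a list of 45 receptors, G protein subunits, kinase inhibitors, cAMP-gated channels and CREB regulators, of which 40 were tested. In knockout against Cre GFP bulbs 0 rose and 2 fell (5% of the list, against 3.35% of all genes): Ezr (-0.51 ± 0.08), which makes ezrin, also an A-kinase anchor, and Vipr2 (-0.47 ± 0.11), a cAMP-coupled peptide receptor. With active CRHR1 1 rose and 5 fell against Cre GFP (15% of the list, against 8.49% of all genes), and among those that fell were Gng7 (-0.42 ± 0.11), a G protein gamma subunit, Gnai1 (-0.28 ± 0.07), which inhibits cyclases, and Wasf1 (-0.26 ± 0.07), a cytoskeletal anchor of PKA. The list median was -0.0077 in the knockout and -0.16 with active CRHR1. In active CRHR1 against knockout bulbs 5 rose and 9 fell (35%, against 25.6%), led by Gng7 (-0.75 ± 0.11), Wasf1 (-0.32 ± 0.07), Vipr2 (0.46 ± 0.11) and Crtc1 (-0.29 ± 0.07), a CREB coactivator.

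Genes known to be induced through CREB were taken as a list of 28, all tested. In knockout against Cre GFP bulbs 0 rose and 3 fell (3 of 28, against 3.35% of all genes), the secreted peptide and granin genes Adcyap1 (-0.49 ± 0.11), Scg2 (-0.41 ± 0.10) and Vgf (-0.49 ± 0.13). With active CRHR1 5 rose and 3 fell against Cre GFP (28.6%, against 8.49%). Those that rose are immediate early genes: Nr4a1 by 1.18 ± 0.31, and Egr2, Fosb, Junb and Ier2, which were chosen after their values were seen. Those that fell make peptides: Adcyap1 (-0.68 ± 0.11), Crh (-0.85 ± 0.18) and Sst (-0.71 ± 0.16). In active CRHR1 against knockout bulbs 4 rose and 2 fell (21.4%, which is below the 25.6% of all genes), among them Nr4a3 (1.18 ± 0.34), Pdyn (0.70 ± 0.18), Vgf (0.57 ± 0.13) and Sst (-1.02 ± 0.16). The list median was -0.01, 0.16 and 0.27 in the 3 comparisons. Knockout array 5 stood apart, with a summed log2 signal of 8.52, against 7.83 to 7.93 on the other knockout arrays and 7.91 to 8.23 on the Cre GFP arrays. A fit without it was added after the data were seen. Since the array stood apart by its high sum over this same list, lower knockout values there follow in part from the choice. The counts of that fit thus give no added weight to the list result. In it 0 rose and 4 fell in the knockout, where 2.64% of all genes passed. The list median there was -0.11, against -0.0032 over all genes. In active CRHR1 against Cre GFP 7 rose and 3 fell, and 11.9% of all genes passed. In active CRHR1 against knockout bulbs 10 rose and 1 fell, and 17.9% of all genes passed. The last median was 0.34, against -0.06 over all genes.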

How the data were processed

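RNA of 15 olfactory bulb samples was measured on 1-colour Agilent arrays, 1 per mouse. TRIzol extraction, DNase I treatment and Cy3 labelling of 100 ng of RNA are given per the labels' protocols. The deposited scanner files hold spot intensities, which the authors' scanner program, Agilent Feature Extraction 10.7.3.1, corrected for background per the file headers. Their other columns are flags that the same program set, per the file headers. The series values that the authors deposited are ratios, found by comparison to be each spot's intensity divided by the array's median over spots that are not controls (within 1% for 100% of 52756 probes matched; medians of the columns 0.899 to 0.935).

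Here each array's processed signal was put on a log2 scale and its 75th percentile (663 to 1172) subtracted. Control and outlier spots were left out, and 0 other spots were saturated. Of 55681 probes 33968 were kept, being well above background on at least 4 of 5 arrays of a group, and the brightest kept probe stood for its gene. Symbols came from RefSeq by accession for 27509 probes and otherwise from the array design. Probe positions are those of the array design (mm9). The 3 comparisons were fitted over all 15 arrays with limma 3.58.1 in R 4.3.3. Each group holds 5 separate mice per the labels, and the number of arrays limits the precision.

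Named are all members that passed, Gnas, Adcy3, Adcy5, Prkaca, Prkacb, Prkar1a, Prkar2b, Creb1, Crebbp, Crem, Rapgef3, Rapgef4, the member with the brightest probe of each family, and up to 4 genes per further list and comparison. Others named were chosen after their values were seen. The result of 1 gene of these lists is not reported here. Members, lists and tests were chosen with earlier results of these data known. Alternatives were slide as a fixed or random block and within slide, the replicate number as a block, quantile normalization, normexp with an offset of 50, centring on the median, the authors' own scaled values, other filters on dim probes, the mean of a gene's probes, fits of 2 groups at a time, and omission of each array. The steps were tested on simulated arrays with 200 changed genes, whose noise was independent between arrays and held no slide effect. In the 3 comparisons 43.1%, 49.3% and 37.5% of changes of 0.5 were recovered, and 70.8%, 81.4% and 74.7% of changes of 1. Of the calls, 5.37%, 7.5% and 2.13% were false. A member that did not pass may thus still have a change of such size or smaller. Other tools were version 1.17.8 of data.table, Python 3.11.15, pandas 2.3.3 and matplotlib 3.10.9.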

Additional observations from a re-analysis of the deposited data

Results flagged for a closer look

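Among 192 sets of 5 arrays (64 members in 3 groups), 14 (7.29%) had an array whose gap to its nearest neighbour exceeded 0.71 of the set's range, Dixon's 95% limit. Chance marks about 1 set in 20. Of the 14, 7 were in the knockout, 4 in active CRHR1 and 3 in Cre GFP bulbs.

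In the knockout, array 5 was high for Adcy5 (level 3.102), Prkar1a (4.14) and Crem (-0.12), array 4 was high for Akap11 (3.18) and Akap6 (0.37), array 1 was high for Akap7 (1.90) and array 3 was high for Pde1c (-1.74). In active CRHR1 bulbs, array 1 was low for Akap10 (-0.31), Prkaca (-1.45) and Prkar2b (2.84), and array 4 was high for Creb3 (1.79). In Cre GFP bulbs, array 5 was high for Akap6 (0.76), array 2 was high for Pde1a (0.79), and array 3 was low for Pde2a (5.87).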

How the results depend on the processing

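Counts of members and of all genes past the threshold were recomputed under 28 alternatives. In knockout against Cre GFP, where 3 members fell and 917 genes passed, 0 members fell with slide as a block (389 genes), within slide 1 (114) and when knockout arrays 2 and 5 were both omitted, a choice made once the data had been seen (332). In the same comparison 1 member fell with the replicate number as a block (562), in the authors' scaled values (458), with no filter (390) and in a fit of these groups alone (494), and 1402 genes passed with quantile normalization. Leaving out 1 array gave 0 to 1 members higher, 1 to 3 lower (1 without knockout array 2, 4 or 5 or Cre GFP array 1, 4 or 5) and 431 to 953 genes. In active CRHR1 against Cre GFP, where 2 members rose, 6 fell and 2320 genes passed, slide as a block gave 1, 3 and 1008, within slide 2 gave 1, 1 and 328, no filter 1, 3 and 1220, the replicate block 1, 4 and 1536, and the authors' values 1, 4 and 1271. Leaving out 1 array gave 1 to 2 higher (1 when Cre GFP array 3 or 4 or active CRHR1 array 1, 3 or 4 was omitted), 3 to 11 lower (11 when Cre GFP array 1 was omitted, and 3 when Cre GFP array 3, 4 or 5 or active CRHR1 array 1 or 5 was) and 1181 to 3600 genes. In active CRHR1 against knockout, where 7 rose, 19 fell and 7004 genes passed, slide as a block gave 2, 3 and 679, the random block 10627 genes, quantile normalization 11 lower, the authors' values 6 lower and 4314 genes, no filter 10 lower, and the omission of knockout arrays 2 and 5 gave 4, 8 and 3033. Leaving out 1 array gave 4 to 7 higher (4 without knockout array 4 or active CRHR1 array 5), 9 to 20 lower (10 and 12 without knockout array 4 or 5, and 9 without active CRHR1 array 1 or 5) and 4141 to 7902 genes.

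The Gnas change between active CRHR1 and knockout was the only one of a called member to turn its sign, to 0.073 (adjusted p = 0.434) with quantile normalization. In the authors' values 33.2% of the knockout calls were higher, against 58.7%, and 47.9% of the active CRHR1 against knockout calls, against 36.6%. Centring on the median moved all changes by 0.01, -0.04 and -0.05 in the 3 comparisons. Replicate numbers did not pair the samples (correlations of deviations from -0.22 to 0.40). The authors' scaled values gave no value here for Akap11, Pde2a, Pde7b and Prkar2b, and active CRHR1 could not be set against knockout within a slide. The cause of these differences was not tested.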

Other observations

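The cone photoreceptor genes Pde6c and Pde6h were chosen after their values were seen. Pde6c had levels of -5.79, -3.50, -5.34, -5.48 and -5.09 on the knockout arrays, against -6.31, -5.21, -5.92, -4.54 and -6.14 on the Cre GFP arrays. Pde6h had -6.43, -3.62, -4.50, -4.61 and -4.67 on the knockout arrays, against -5.14, -5.18, -6.06, -5.45 and -5.07 on the Cre GFP arrays. Knockout array 2 was the highest for both. Pde6c was well above background on 4 knockout, 2 active CRHR1 and 2 Cre GFP arrays, and Pde6h on 4, 5 and 4. Neither passed in a comparison (adjusted p from 0.212 to 0.947).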
